A study of Danio rerio with 6 samples.

Results

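A set of 10 regulators of growth in immature cells were followed in sorted intestinal epithelial cells of zebrafish larvae at 3 and 5 days post fertilization (dpf). The genes were lin28ab, lin28b, igf2bp1, igf2bp3, hmga2, mycn, sall4, sox4b, sox11a and sox11b. They are 10 of the 32520 genes counted, and all 10 were among the 22386 that passed the filter on low counts. They had been listed because most of them lay lower at 5 dpf than at 3 dpf in these libraries, so their difference between the ages chose them and is given as a description without a test. The gene names gave copies of LIN28A, SOX4 and SOX11 the same symbol, so these were told apart by chromosome. The copy of LIN28A on chromosome 19 is called lin28ab, the copy of SOX4 on chromosome 16 sox4b, and the copies of SOX11 on chromosomes 17 and 20 sox11a and sox11b, as RefSeq names the genes there.

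The cells came from pooled larvae that had the red fluorescent tdTomato inserted into cldn15la, which encodes a claudin of gut epithelium, and the same allele was present at both ages. Heads were removed, the bodies were dissociated with trypsin and collagenase, and cells were sorted by flow cytometry with the dye 7AAD. The labels give no difference between the groups other than age, and each age had 3 libraries of RNA. The comparison asked how expression in these cells changed between 3 and 5 dpf.

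LIN28 proteins bind RNA and, in mammals and worms, block the maturation of the microRNA let-7, which itself represses growth regulators. IGF2BP proteins bind and stabilise messenger RNAs, among them that of the growth factor IGF2. HMGA2 is a chromatin protein with AT hooks and MYCN is a MYC-type transcription factor. SALL4, a zinc finger factor of stem cells, recruits the histone deacetylase complex NuRD in mammals. SOX4 and SOX11 belong to the SoxC factors of progenitor cells. In mammals many of these genes are known for high levels in embryonic tissue and low levels in mature tissue.

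Libraries held 102653637 to 125456069 counts. Counts of the mitochondrial chromosome made up 29.2% of 5 dpf replicate 1, against 7.91 to 11.4% of the other libraries, and its TMM scaling factor was 0.612. One treatment tag, that of the library titled 3 dpf replicate 3, read 4 dpf, and the title decided its group. In edgeR's quasi-likelihood test the calls at a Benjamini-Hochberg adjusted p of 0.05 were 7194 of 22386 genes (32.1%), and 14.1% of all genes tested were lower at 5 dpf and 18.1% higher. Without both 5 dpf replicate 1 and 3 dpf replicate 3, 5608 were lower and 6294 higher. All 12 epithelial marker genes were detected, and their summed level was 7998 to 9892 CPM at 3 dpf and 17789, 9891 and 8156 CPM in 5 dpf replicates 1, 2 and 3. Of these markers fabp2, vil1 and cdh17 rose (log2 fold changes 3.20, 1.00 and 1.14, edgeR adjusted p = 0.0111, 0.0417 and 0.0265), and hnf4a, cdx1b and elf3 fell (-1.04, -0.87 and -1.32, edgeR adjusted p = 0.0231, 0.0353 and 0.0210).

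Of the 10 genes 7 lay at least 2-fold lower at 5 dpf, where 11.7% of all genes tested did. In 8 of the 10 the libraries of the ages did not overlap and the 5 dpf libraries were lower, as in 24.2% of all genes tested. The threshold was passed by 6 of the 10, in the direction of 14.1% of all genes tested, namely lin28ab, sox4b, sall4, mycn, igf2bp1 and sox11a. Since the genes were chosen on this difference, nothing is read from these counts. The median log2 fold change of the 10 was -1.41, and that of all genes tested was 0.09. The label of falling regulators did not hold for sox11b, whose level was nearly equal at the ages, and igf2bp3 overlapped between them.

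**Figure D1:**
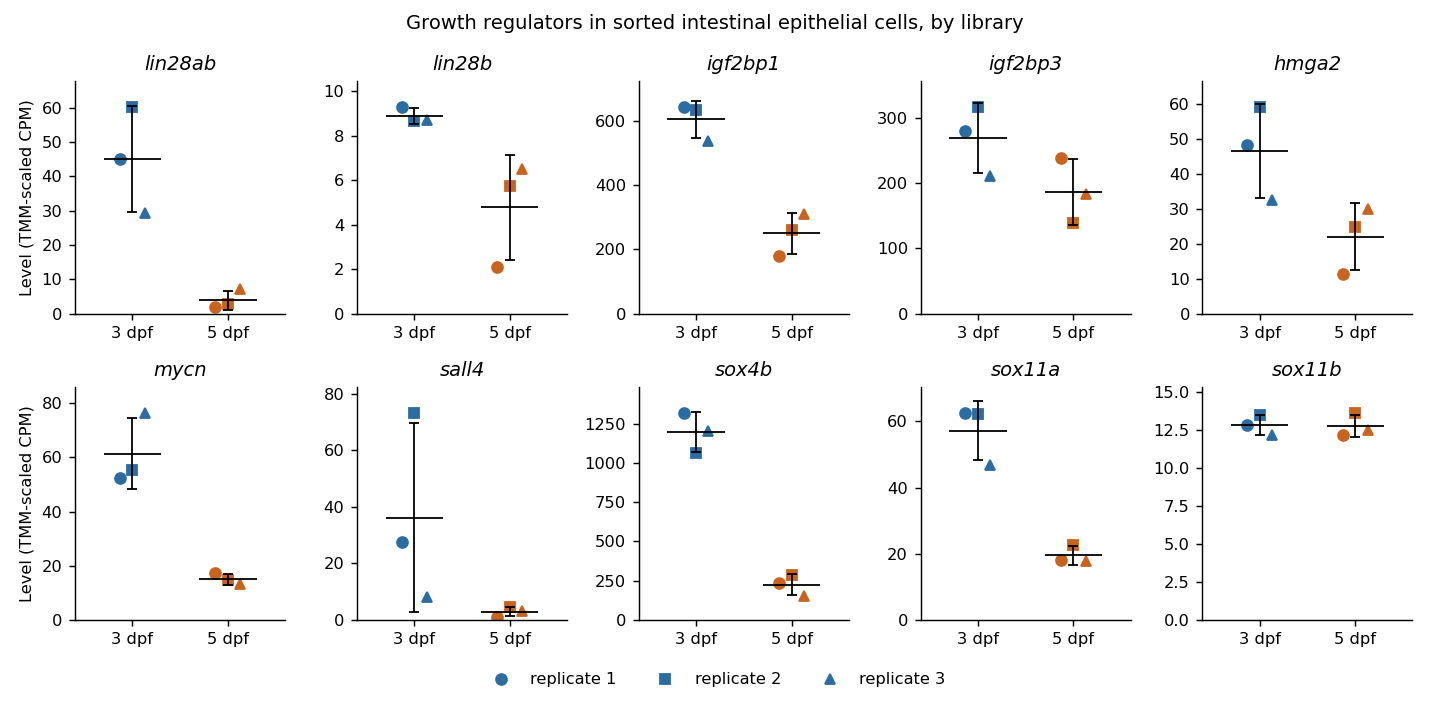
Level of each of the 10 genes in every library, in CPM scaled by TMM factors (linear axes from 0), with the mean and SD of 3 libraries per age. In 8 genes every 5 dpf library lies below every 3 dpf library, while igf2bp3 and sox11b overlap.

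Among the LIN28 genes, lin28ab had the larger log2 fold change of the chosen pair. lin28ab (ENSDARG00000016999, chromosome 19, 15440841 to 15473157 of GRCz11, plus strand) stood at 45.1, 60.2 and 29.4 CPM in 3 dpf replicates 1, 2 and 3 and at 1.91, 2.72 and 7.11 CPM in the 5 dpf replicates. CPM, here and below, are library shares of counts scaled by TMM factors, and libraries are named in replicate order. The ages did not overlap, and 5 dpf replicate 3 was the highest of its age. The mean was 44.9 ± 15.4 CPM at 3 dpf and 3.91 ± 2.79 CPM at 5 dpf (SD, n = 3 per age), a log2 fold change of -3.52 (SE 0.55). In bulk sorted cells, fewer cells that express a gene and less RNA per cell cannot be told apart. Of all genes tested, 0.152% had a log2 fold change as low or lower, but this ranks the same difference that chose the gene.

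lin28b, the other LIN28 type, had fewer counts than lin28ab in every 3 dpf library, and ranged from 160 counts in 5 dpf replicate 1 to 1096 in 3 dpf replicate 3. lin28b (ENSDARG00000052511, chromosome 20, 47491247 to 47531869, plus strand) measured 9.29, 8.65 and 8.70 CPM at 3 dpf, against 2.09, 5.76 and 6.49 CPM at 5 dpf. The 3 dpf libraries lay within 1.07-fold of each other, while 5 dpf replicate 1 lay well below the other 5 dpf libraries. The log2 fold change of lin28b was -0.89 (SE 0.40), or -0.53 without 5 dpf replicate 1.

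lin28aa (ENSDARG00000004328, chromosome 16), the LIN28A copy outside the chosen genes, fell from 1.26 ± 0.149 CPM to 0.0866 ± 0.0789 CPM (log2 fold change -3.76, SE 0.86, edgeR adjusted p = 0.0150). It rested on 136, 157 and 138 counts at 3 dpf and 0, 22 and 15 counts at 5 dpf. That call was lost when 3 dpf replicate 1 or 2 was left out (edgeR adjusted p up to 0.0564). Per kilobase of annotated exon, lin28b held 65.1 ± 7.30% of the summed LIN28 level at 3 dpf and 92.2 ± 2.18% at 5 dpf. lin28ab held 29.6 ± 7.26% and 7.00 ± 2.58% (SD, n = 3 per age). These shares depend on the annotated exon lengths, 633 bases for lin28b and 6853 for lin28ab. Shares, ratios and sums of a family, here and below, hold genes that were listed for their fall, so nothing is read from their change.

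Among the IGF2BP genes, igf2bp1 had the higher level of the chosen pair at 3 dpf, in CPM and per length. igf2bp1 (ENSDARG00000061478, chromosome 3, 23518137 to 23575115, minus strand) stood at 644, 634 and 538 CPM at 3 dpf, against 181, 259.7 and 309 CPM at 5 dpf. The libraries of each age stayed apart, with 5 dpf replicate 1 the lowest. Its mean was 605 ± 58.6 CPM at 3 dpf and 249.8 ± 64.5 CPM at 5 dpf (n = 3 per age), a log2 fold change of -1.28 (SE 0.26). igf2bp3 (ENSDARG00000010266, chromosome 19, 20201254 to 20247336, plus strand) stood at 281, 317 and 212 CPM at 3 dpf, against 239, 138 and 184 CPM at 5 dpf. Here 5 dpf replicate 1 was above 3 dpf replicate 3, so the ages overlapped.

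The log2 fold change of igf2bp3 was -0.53 (SE 0.27), or -0.91 without both 5 dpf replicate 1 and 3 dpf replicate 3. The igf2bp2 copies, not among the chosen genes, did not pass the test. igf2bp2a measured 32.5 ± 5.36 CPM at 3 dpf and 46.5 ± 7.39 at 5 dpf (log2 fold change 0.52, SE 0.21, edgeR adjusted p = 0.0951). igf2bp2b measured 47.4 ± 4.46 and 35.1 ± 6.66 CPM (log2 fold change -0.43, SE 0.20, edgeR adjusted p = 0.143). Per exon length igf2bp1 held 46.9 ± 0.854% of the summed IGF2BP level at 3 dpf and 30.8 ± 6.20% at 5 dpf. The ratio of igf2bp1 to igf2bp3 per length was 1.65, 1.44 and 1.83 at 3 dpf and 0.545, 1.35 and 1.21 at 5 dpf. At 5 dpf, replicate 1 alone had more igf2bp3 than igf2bp1.

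hmga2 (ENSDARG00000069912, chromosome 4, 12819272 to 12862087, minus strand) stood at 48.3, 59.15 and 32.5 CPM at 3 dpf, against 11.4, 24.8 and 29.8 CPM at 5 dpf. The ages did not overlap, but 3 dpf replicate 3 and 5 dpf replicate 3 lay close together. Its log2 fold change was -1.08 (SE 0.38), or -0.76 without 5 dpf replicate 1. hmga1a, a related AT-hook gene outside the chosen set, was the most abundant gene of the 6 families. hmga1a fell from 3994 ± 361 CPM to 1011 ± 281 CPM (log2 fold change -1.98, SE 0.32, edgeR adjusted p = 0.00491), and stayed past the threshold in all 15 alternatives. hmga1b measured 17.0 ± 6.90 and 7.14 ± 4.07 CPM and did not pass (edgeR adjusted p = 0.0805). Per length hmga1a held 96.7 ± 0.959% of the summed HMGA level at 3 dpf and 94.5 ± 1.08% at 5 dpf, and hmga2 held 2.90 ± 1.05% and 5.00 ± 0.918%.

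Of the 17 family genes tested outside the chosen set 6 fell and 3 rose, beside 14.1 and 18.1% of all genes tested, and the MYC genes had calls in both directions. mycn (ENSDARG00000006837, chromosome 20, 33294428 to 33299384, plus strand) stood at 52.3, 55.5 and 76.4 CPM at 3 dpf, against 17.2, 14.6 and 13.2 CPM at 5 dpf. Every 5 dpf library was far below every 3 dpf library, and 3 dpf replicate 3 was the highest of all. Its mean was 61.4 ± 13.1 CPM at 3 dpf and 15.0 ± 1.99 CPM at 5 dpf (n = 3 per age), with a log2 fold change of -2.03 (SE 0.22). mych, a MYC gene of fishes, fell from 236 ± 54.9 CPM to 124 ± 34.6 CPM (log2 fold change -0.93, SE 0.29, edgeR adjusted p = 0.0438). mycla, an L-MYC copy, fell from 53.1 ± 6.82 CPM to 27.5 ± 8.53 CPM (log2 fold change -0.95, SE 0.26, edgeR adjusted p = 0.0282).

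Both copies of c-MYC rose. myca (ENSDARG00000045695, chromosome 24) rose from 21.0 ± 0.553 CPM to 45.7 ± 10.7 CPM (log2 fold change 1.121, SE 0.22, edgeR adjusted p = 0.00870). mycb (ENSDARG00000007241, chromosome 2) rose from 45.2 ± 4.82 CPM to 75.6 ± 6.25 CPM (log2 fold change 0.74, SE 0.18, edgeR adjusted p = 0.0185). The myca call ended without 3 dpf replicate 1 (edgeR adjusted p = 0.0527), and the mych, mycla and mycb calls ended in 6, 7 and 6 of the 15 alternatives. myclb measured 40.1 ± 13.1 and 55.2 ± 9.68 CPM and did not pass (edgeR adjusted p = 0.234). Per length mycn stood at 2.07, 2.30 and 3.02 times the level of myca at 3 dpf and at 0.259, 0.263 and 0.324 times at 5 dpf. This ratio was not tested, since mycn was chosen on its change. Summed per length, the 6 MYC genes stood at 191 ± 17.8 RPKM at 3 dpf and 149 ± 21.3 RPKM at 5 dpf (RPKM being scaled CPM per kilobase of exon, n = 3 per age).

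**Figure D2:**
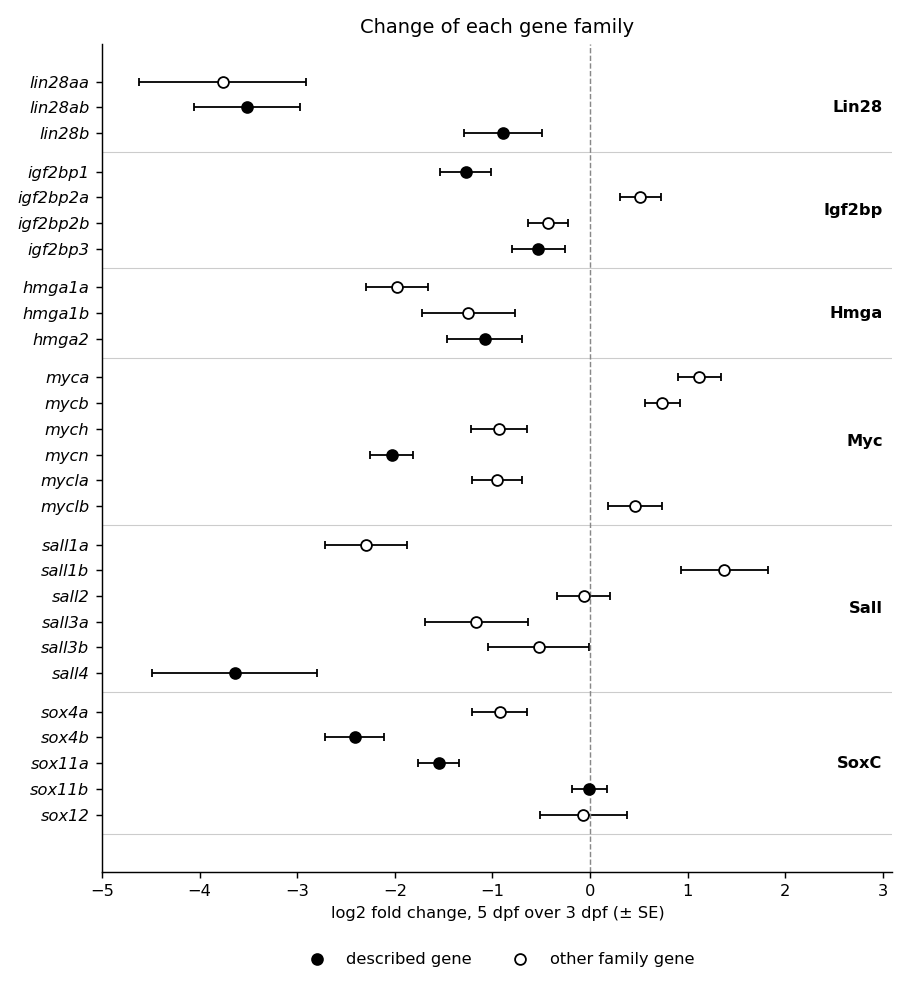
log2 fold change of 5 dpf over 3 dpf with its standard error for the 10 described genes (filled) and the other genes of their families (open), from edgeR on 3 libraries per age. myca, mycb and sall1b lie above 0 while mycn and sall4 lie below it, and sox11b lies at 0 (-0.01, SE 0.18).

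sall4 was the most uneven of the 10 genes within an age. sall4 (ENSDARG00000044485, chromosome 23, 38940700 to 38952596, plus strand) stood at 27.4, 73.1 and 7.93 CPM at 3 dpf, a 9.22-fold range, and at 1.09985, 4.37 and 3.17 CPM at 5 dpf. The ages did not overlap, although 3 dpf replicate 3 came near the 5 dpf libraries. The log2 fold change of sall4 was -3.64 (SE 0.85), or -2.63 without 3 dpf replicate 2. sall4 shares 68 of its 8687 exon bases with atp9a on the same strand.

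sall1a, another SALL gene, fell from 10.3 ± 5.19 CPM to 2.09 ± 0.146 CPM (log2 fold change -2.30, SE 0.42, edgeR adjusted p = 0.00742) and stayed past the threshold in all 15 alternatives. Its 3 dpf libraries ranked as those of sall4 did, with replicate 2 highest and replicate 3 lowest. That order held for 24.15% of all genes tested. sall1b rose from 0.655 ± 0.138 CPM to 1.70 ± 0.849 CPM (log2 fold change 1.38, SE 0.45, edgeR adjusted p = 0.0498), a call that ended in 11 of 15 alternatives. sall2, sall3a and sall3b measured 0.362 to 2.52 CPM on average at either age and did not pass (edgeR adjusted p = 0.876, 0.128 and 0.470). Per length sall4 held 56.9 ± 17.0% of the summed SALL level at 3 dpf and 20.7 ± 7.91% at 5 dpf.

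The SoxC factors ranged from the most abundant of the 10 genes to the steadiest. sox4b (ENSDARG00000098834, chromosome 16, 68069 to 71108, plus strand) stood at 1319, 1067 and 1205 CPM at 3 dpf, against 233, 287 and 154 CPM at 5 dpf. The ages were far apart, and at 3 dpf its level per length was above that of 99.3% of the genes tested. Its mean was 1197 ± 126 CPM at 3 dpf and 225 ± 67.3 CPM at 5 dpf (n = 3 per age), with a log2 fold change of -2.41 (SE 0.30). sox4b made up 52.7, 45.4 and 55.6% of the summed CPM of the 10 genes at 3 dpf and 32.5, 37.1 and 20.9% at 5 dpf.

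sox4a (ENSDARG00000004588, chromosome 19), the other SOX4 copy, fell less in its point estimate, from 275 ± 21.7 CPM to 144 ± 52.4 CPM (log2 fold change -0.93, SE 0.28, edgeR adjusted p = 0.0409). The sox4a call ended in 8 of 15 alternatives. The ratio of sox4b to sox4a per length was 5.20, 4.72 and 4.57 at 3 dpf and 2.46, 1.56 and 1.37 at 5 dpf, so these libraries did not overlap. The difference between the copies was not tested, since sox4b was chosen on its change. The counting command, per the file headers, set no option for reads that map to several places, so levels of near-identical copies are uncertain.

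The sox11 copies stood apart in their values, a difference that was not tested. sox11a (ENSDARG00000077811, chromosome 17, 35878544 to 35881841, minus strand) stood at 62.5, 62.3 and 46.8 CPM at 3 dpf, against 18.1, 22.8 and 17.7 CPM at 5 dpf. Every 5 dpf library lay below every 3 dpf library, with a log2 fold change of -1.55 (SE 0.21). sox11b (ENSDARG00000095743, chromosome 20, 30032628 to 30035326, minus strand) stood at 12.8, 13.5 and 12.2 CPM at 3 dpf, against 12.2, 13.6 and 12.5 CPM at 5 dpf. The ages overlapped fully, and the log2 fold change of sox11b was -0.01 (SE 0.18). Across the 15 alternatives the sox11b value lay between -0.08 and 0.13, at 0.13 with upper quartile scaling and -0.05 with library size alone.

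Per length sox11a stood at 3.99, 3.77 and 3.15 times sox11b at 3 dpf and at 1.22, 1.37 and 1.16 times at 5 dpf. A gene on the opposite strand overlaps 1843 of the 2699 exon bases of sox11b. It had 5 to 30 counts per library, against 932 to 1942 for sox11b, with counting set to use strand. sox12, a further SoxC gene, measured 0.938 CPM on average at 3 dpf and 0.891 at 5 dpf and did not pass (edgeR adjusted p = 0.922). Summed per length, sox4a, sox4b, sox11a and sox11b stood at 513 ± 47.7 RPKM at 3 dpf and 131 ± 36.9 RPKM at 5 dpf (n = 3 per age).

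**Figure D3:**
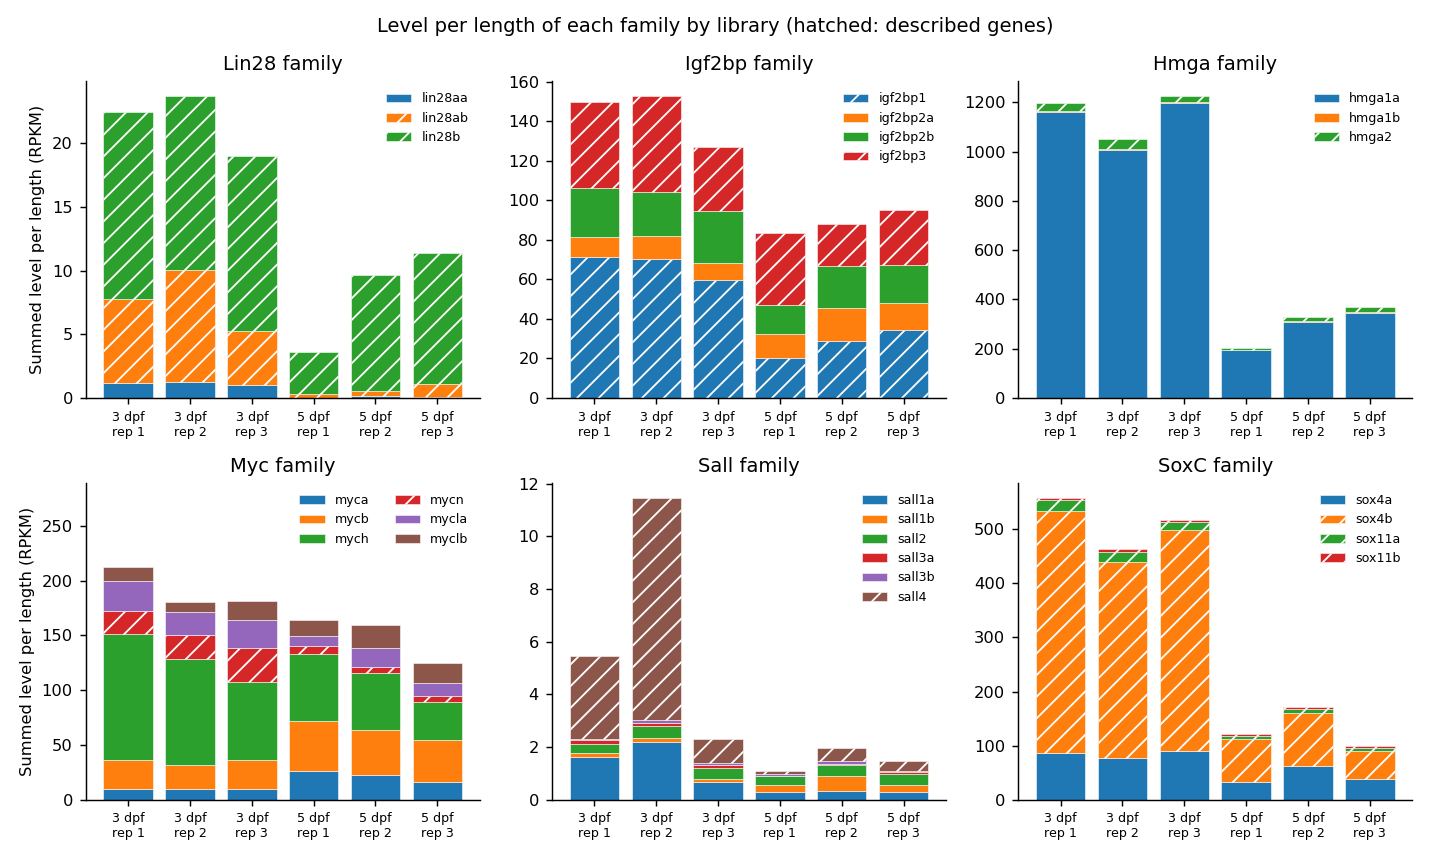
Level per exon length of each gene (RPKM, stacked, linear axes from 0) in every library, by family, with the 10 described genes hatched. sox4b makes up 79.2% of the 4 SoxC genes shown at 3 dpf and 58.0% at 5 dpf (means of 3 libraries), and hmga1a nearly all of the HMGA level.

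Ordered by level per length at 3 dpf, sox4b came first with 407 ± 43.0 RPKM, then igf2bp1 with 67.0 ± 6.49, igf2bp3 with 41.4 ± 8.21 and hmga2 with 33.0 ± 9.49. mycn followed with 24.7 ± 5.27 RPKM, sox11a with 17.3 ± 2.72, lin28b with 14.0 ± 0.561, lin28ab with 6.55 ± 2.25, sox11b with 4.75 ± 0.249 and sall4 with 4.16 ± 3.85 (SD, n = 3). The neighbours igf2bp3 and hmga2, hmga2 and mycn, lin28ab and sox11b, and sox11b and sall4 differed by less than the larger SD of the pair. At 5 dpf sall4 and lin28ab were lowest, with 0.331 ± 0.190 and 0.571 ± 0.408 RPKM. sall4 then ranked above 18.2% of the genes tested and lin28ab above 25.1%, against 59.0% and 67.4% at 3 dpf.

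Libraries of an age did not rank alike for all 10 genes. The order replicate 2, 1 and 3 at 3 dpf held for 5 of them (lin28ab, sall4, igf2bp3, hmga2 and sox11b), and for 24.15% of all genes tested. In 3 dpf replicate 3, the library tagged 4 dpf, the log2 ratio to the average of 3 dpf replicates 1 and 2 was -2.66 for sall4, -0.84 for lin28ab and -0.73 for hmga2, and 0.50 for mycn. In 5 dpf replicate 1, the library rich in mitochondrial counts, sall4 lay at -1.78, lin28b at -1.55, lin28ab at -1.36 and hmga2 at -1.26 against the other 5 dpf libraries, and igf2bp3 at 0.57. The medians over all genes tested in the same contrasts were -0.02 and -0.06. sox4b hardly differed in either library, with 0.01 and 0.08. Among the 5 dpf libraries, replicate 1 also had the highest epithelial, skin and kidney marker sums and the lowest muscle, mesenchyme, neural and leukocyte sums. The part of this in the values of the 10 genes was not tested.

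**Figure D4:**
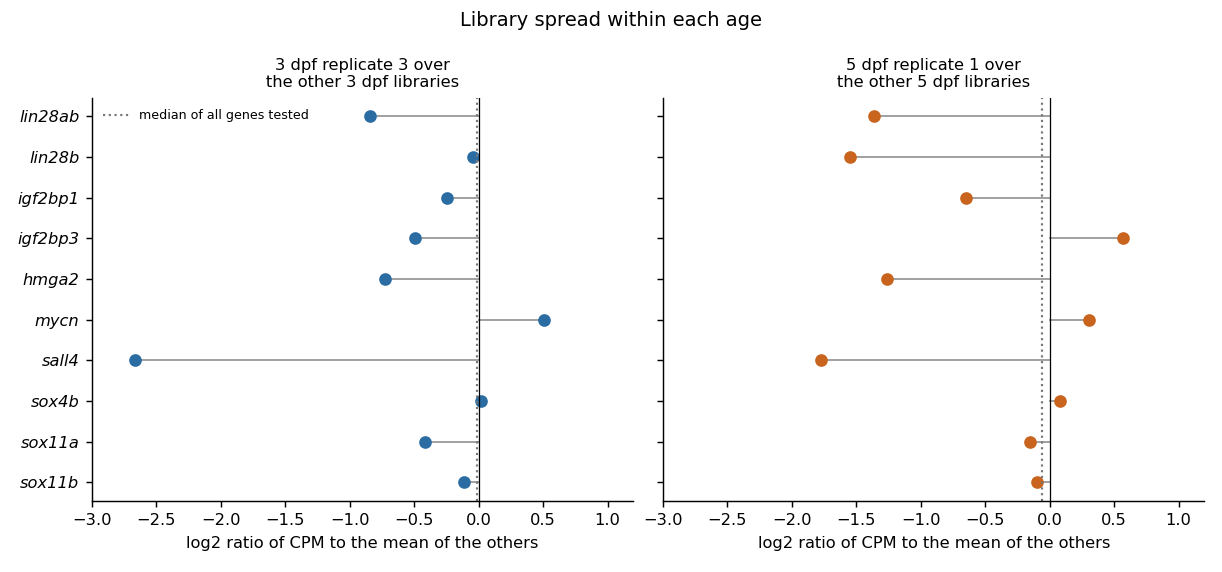
log2 ratio of CPM in 3 dpf replicate 3 (left) and 5 dpf replicate 1 (right) to the mean of the other libraries of the same age, for each of the 10 genes, with the median of all genes tested as a dotted line. sall4 lies lowest in both, at -2.66 and -1.78.

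Marker sums of other cell types differed between the ages too. The summed level of 6 skeletal muscle markers was 1271 to 2148 CPM at 3 dpf and 69.8, 881 and 926 CPM in 5 dpf replicates 1, 2 and 3. The low value came from the library rich in mitochondrial counts. That of 11 mesenchyme and smooth muscle markers was 477 to 758 CPM at 3 dpf and 1189 to 2134 CPM at 5 dpf. The 11 neural markers, among them neurod1, which gut endocrine cells also use, summed to 376 to 671 CPM at 3 dpf and 340 to 567 CPM at 5 dpf, overlapping ranges. That sum was carried by ret, at 210 CPM on average at both ages, and neurod1, at 157 and 89.4 CPM. Of these markers her4.1 fell from 9.28 to 2.83 CPM (edgeR adjusted p = 0.00645). sypa and sypb rose (edgeR adjusted p = 0.0350 and 0.0109), and the others did not pass. The 5 germ cell markers summed to 0.389 to 0.739 and 0.415 to 1.61 CPM. The sums were higher at 5 dpf without overlap for 8 exocrine pancreas markers (2.64 to 3.07 CPM and 289 to 959 CPM), 9 skin markers (2604 to 3080 and 4301 to 6879 CPM) and 7 leukocyte markers (1.47 to 2.63 and 11.8 to 29.1 CPM). They overlapped for 5 kidney markers (699.6 to 1053 and 808 to 2713 CPM), 9 hepatocyte markers (47.9 to 93.4 and 73.9 to 95.8 CPM), 5 erythroid markers (92.4 to 169 and 127 to 161 CPM) and 4 endothelial markers (4.00 to 6.03 and 4.84 to 8.19 CPM). The kidney sum was carried by atp1a1a.4, at 856 CPM on average at 3 dpf and 1482 at 5 dpf. trpm7 followed with 39.6 and 40.4 CPM, while pax8 measured 0.327 and 0.270 CPM and cdh16 0.0358 and 0.491 CPM. The skin sum was carried by krt4, at 2473 and 4028 CPM on average, which did not pass (edgeR adjusted p = 0.110). Apart from krt4 and agr1 (edgeR adjusted p = 0.301), every gene of that list passed and rose, beside 18.1% of all genes tested. Among these, tp63 rose from 1.08 to 6.56 CPM (edgeR adjusted p = 0.0116) and krt5 from 31.0 to 232 CPM (edgeR adjusted p = 0.00331). The mesenchyme sum was carried at 3 dpf by tagln (ENSDARG00000033466), at 512 and 456 CPM, which did not pass (edgeR adjusted p = 0.809). Every other gene of that list passed and rose, beside 18.1% of all genes tested. Among them col1a1a rose from 86.2 to 814 CPM (edgeR adjusted p = 0.00471) and acta2 from 1.15 to 81.6 CPM (edgeR adjusted p = 0.0042). The other tagln entry (ENSDARG00000045408) rose from 0.447 to 22.8 CPM (edgeR adjusted p = 0.00591). Of the markers in these lists, 0 were at 0 in all libraries. The muscle sum differed in the direction of the 10 genes and was carried by myhz2, myhz1.1, ckma and actc1b, none of which passed the test (log2 fold changes -1.89 to -1.04, edgeR adjusted p = 0.111 to 0.464). The muscle regulator myog rose (log2 fold change 2.97, edgeR adjusted p = 0.0186), from 0.409 CPM to 3.20 CPM on average, and myod1 did not pass (0.54, edgeR adjusted p = 0.601). The part of these cells in the result was not tested.

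Around the LIN28 genes, most genes of a microRNA processing list were called lower at 5 dpf. Of 15 microRNA processing genes tested 9 fell and 0 rose, beside 14.1 and 18.1% of all genes tested, and their median log2 fold change was -0.65. xpo5, which exports microRNA precursors from the nucleus, fell from 29.3 ± 7.32 CPM to 8.40 ± 1.74 CPM (log2 fold change -1.80, SE 0.27, edgeR adjusted p = 0.00408) and stayed past the threshold in all 15 alternatives. prkra, a partner of Dicer, fell from 28.1 ± 2.10 CPM to 11.7 ± 4.27 CPM (log2 fold change -1.27, SE 0.30, edgeR adjusted p = 0.0167). ago1, an Argonaute gene, fell from 13.6 ± 1.45 CPM to 6.18 ± 1.84 CPM (log2 fold change -1.14, SE 0.27, edgeR adjusted p = 0.0168). The prkra and ago1 calls ended in 3 and 4 of the 15 alternatives, leaving out 3 dpf replicate 1 or 2 among them. The list had 1 and 2 genes lower without 3 dpf replicates 1 and 2 in turn, 5 without 5 dpf replicate 3, and 2 with library size alone. Over all genes tested 1226, 1470, 2227 and 1337 fell in these fits, in that order, against 3149 in the main fit. In the fit without 3 dpf replicate 1, 1 gene of the list fell, beside 1226 of 23298 genes tested. The part of the general loss of calls in the change of the list was not tested. lin28aa, described above, is counted in this list and among the family genes.

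The loci of let-7 hairpins gave few counts. Of 18 such loci 8 had 0 counts in every library, and 3 passed the filter. Summed over the loci, the libraries held 103, 83 and 135 counts at 3 dpf and 122, 184 and 82 counts at 5 dpf, with overlap. Mature let-7 is too short to be measured in libraries of this kind.

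Of 26 genes reported as let-7 targets, mostly in mammals, 7 fell and 4 rose, beside 14.1 and 18.1% of all genes tested, with a median log2 fold change of -0.47. Beside hmga1a, e2f2, a cell cycle transcription factor, fell from 13.4 ± 2.34 CPM to 3.48 ± 2.06 CPM (log2 fold change -1.94, SE 0.47, edgeR adjusted p = 0.0191). igf1r (ENSDARG00000034434), a growth factor receptor copy, fell from 24.8 ± 11.3 CPM to 7.62 ± 1.27 CPM (log2 fold change -1.70, SE 0.38, edgeR adjusted p = 0.0146). The other copy, igf1r (ENSDARG00000027423), measured 26.4 ± 1.66 and 18.6 ± 11.2 CPM and did not pass (edgeR adjusted p = 0.459). thbs1 (ENSDARG00000103775), an extracellular matrix gene, rose from 7.46 ± 1.66 CPM to 28.6 ± 10.3 CPM (log2 fold change 1.94, SE 0.32, edgeR adjusted p = 0.00564).

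The other copies of igf1r and thbs1 were named after their values were seen. thbs1 (ENSDARG00000010785) measured 115.1 ± 64.7 and 48.7 ± 13.9 CPM and did not pass (edgeR adjusted p = 0.0694). trim71, a let-7 target known from worms as lin-41 and chosen after its values were seen, fell from 125 ± 21.1 CPM to 63.1 ± 5.37 CPM (log2 fold change -0.99, SE 0.20, edgeR adjusted p = 0.0105). The igf1r and trim71 calls ended without 3 dpf replicate 1 or 2, and the e2f2 call in 5 of the 15 alternatives. The number of genes of the list that fell was 1 when either 3 dpf replicate 1 or 2 was left out, 4 when 5 dpf replicate 2 was, 3 with library size alone, and 11 with 5 dpf replicate 1 and 3 dpf replicate 3 both left out. Over all genes tested 1226, 1470, 2159, 1337 and 5608 fell in these fits, in that order, against 3149 in the main fit.

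The next list held partners and regulators of MYC. Of 22 genes 10 fell and 2 rose, beside 14.1 and 18.1% of all genes tested, and the median log2 fold change was -0.73. skp2, a ubiquitin ligase subunit that acts on MYC, fell from 18.9 ± 4.52 CPM to 4.01 ± 0.715 CPM (log2 fold change -2.24, SE 0.27, edgeR adjusted p = 0.00227). aurka, a mitotic kinase that stabilises MYCN in mammals, fell from 31.7 ± 3.88 CPM to 7.88 ± 1.45 CPM (log2 fold change -2.01, SE 0.22, edgeR adjusted p = 0.00188). mxd3, a MAX partner, fell from 38.6 ± 2.53 CPM to 10.98 ± 1.76 CPM (log2 fold change -1.81, SE 0.19, edgeR adjusted p = 0.00184). mxd1, another MAX partner, known in mammals to oppose MYC in differentiating cells, rose from 1.81 ± 0.548 CPM to 8.57 ± 2.95 CPM (log2 fold change 2.24, SE 0.38, edgeR adjusted p = 0.00583).

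These MYC partner calls were stable for skp2, aurka, mxd3 and mxd1, which stayed past the threshold in all 15 alternatives. mlxipl, which responds to glucose, rose from 3.09 ± 0.136 CPM to 5.69 ± 0.547 CPM (log2 fold change 0.88, SE 0.23, edgeR adjusted p = 0.0233), a call that ended in 6 of 15. max itself, the shared partner, measured 110 CPM on average at 3 dpf and 100.3 at 5 dpf and did not pass (edgeR adjusted p = 0.741). Named outside the rule for the list, max was chosen after its values were seen. With library size as the only scaling, and without 3 dpf replicate 1, 6 genes of the list fell. Over all genes tested 1337 and 1226 fell in these fits, against 3149 in the main fit.

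Of the pluripotency and NuRD genes 9 of 21 fell and 2 rose, beside 14.1 and 18.1% of all genes tested, with a median log2 fold change of -0.77. All 9 that fell encode NuRD subunits. rbbp4, a histone-binding subunit, fell from 149 ± 10.2 CPM to 49.8 ± 15.0 CPM (log2 fold change -1.58, SE 0.26, edgeR adjusted p = 0.00555). rbb4l, a close relative, fell from 121 ± 14.7 CPM to 46.7 ± 4.57 CPM (log2 fold change -1.37, SE 0.19, edgeR adjusted p = 0.00336). hdac1, the deacetylase, fell from 446 ± 40.6 CPM to 179 ± 30.2 CPM (log2 fold change -1.32, SE 0.22, edgeR adjusted p = 0.00583). chd3, a remodeller of the same complex, rose from 5.08 ± 0.941 CPM to 23.9 ± 5.94 CPM (log2 fold change 2.24, SE 0.27, edgeR adjusted p = 0.00235). The rbbp4, rbb4l, hdac1 and chd3 calls held in all 15 alternatives.

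Of the core pluripotency factors, pou5f3 and nanog had few counts. pou5f3, the OCT4-type gene of zebrafish, measured 0.326 CPM on average at 3 dpf and 0.114 at 5 dpf (edgeR adjusted p = 0.118), and nanog, at 0.0331 and 0.0530 CPM, did not pass the filter. sox2, also of this list, measured 4.34 CPM on average at 3 dpf and 3.19 at 5 dpf and did not pass (edgeR adjusted p = 0.3805). All of these were chosen after their values were seen. The genes of the list that fell numbered 3 with library size alone and 4 when 3 dpf replicate 1 was left out. Over all genes tested 1337 and 1226 fell in these fits, against 3149 in the main fit.

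The IGF genes, a list that includes receptors and binding proteins, were called lower or higher in 1 case each of 21 tested, beside 14.1 and 18.1% of all genes tested. The igf1r copy given above fell, and igf2a rose, from 0.682 ± 0.134 CPM to 1.75 ± 0.0832 CPM (log2 fold change 1.36, SE 0.33, edgeR adjusted p = 0.0189). The median log2 fold change of the list was 0.36. The igf2a call ended in 7 of the 15 alternatives. When 5 dpf replicate 1 was left out 2 fell and 7 rose, while over all 23197 genes then tested 4880 fell and 5748 rose. With 3 dpf replicate 3 left out as well 5 fell and 8 rose. Over all 22955 genes tested in that fit 5608 fell and 6294 rose. The cause of the change in the calls of the list was not tested. igfbp1b, a binding protein gene named after its values were seen, changed direction between these fits. It measured 12.0, 10.2 and 2.50 CPM at 3 dpf, against 45.2, 5.55 and 4.73 CPM at 5 dpf (log2 fold change 1.16, edgeR adjusted p = 0.375), with a value of -0.67 when 5 dpf replicate 1 was left out (edgeR adjusted p = 0.358) and -1.13 when both were (edgeR adjusted p = 0.00301).

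Of 19 other SOX genes tested 1 fell and 3 rose, beside 14.1 and 18.1% of all genes tested. All 4 were low, with a mean under 4 CPM at either age. sox1 (ENSDARG00000008131), of the neural SoxB group, fell from 1.99 ± 1.04 CPM to 0.394 ± 0.271 CPM (log2 fold change -2.31, SE 0.70, edgeR adjusted p = 0.0406). sox8 (ENSDARG00000037782), of the neural crest SoxE group, rose from 1.22 ± 0.0922 CPM to 3.53 ± 0.783 CPM (log2 fold change 1.53, SE 0.30, edgeR adjusted p = 0.00880). sox21a rose from 0.389 ± 0.0614 CPM to 1.06 ± 0.288 CPM (log2 fold change 1.45, SE 0.40, edgeR adjusted p = 0.0298), and sox18, an endothelial gene, from 0.169 ± 0.0175 to 0.462 ± 0.0504 CPM (log2 fold change 1.44, SE 0.44, edgeR adjusted p = 0.0417). The sox1, sox21a and sox18 calls ended in 7, 8 and 10 of 15 alternatives. The sox8 call ended without 3 dpf replicate 1 and with library size alone. Abundant SOX genes of the list, such as sox5 at 74.3 and 50.2 CPM on average, did not pass (edgeR adjusted p = 0.146).

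**Figure D5:**
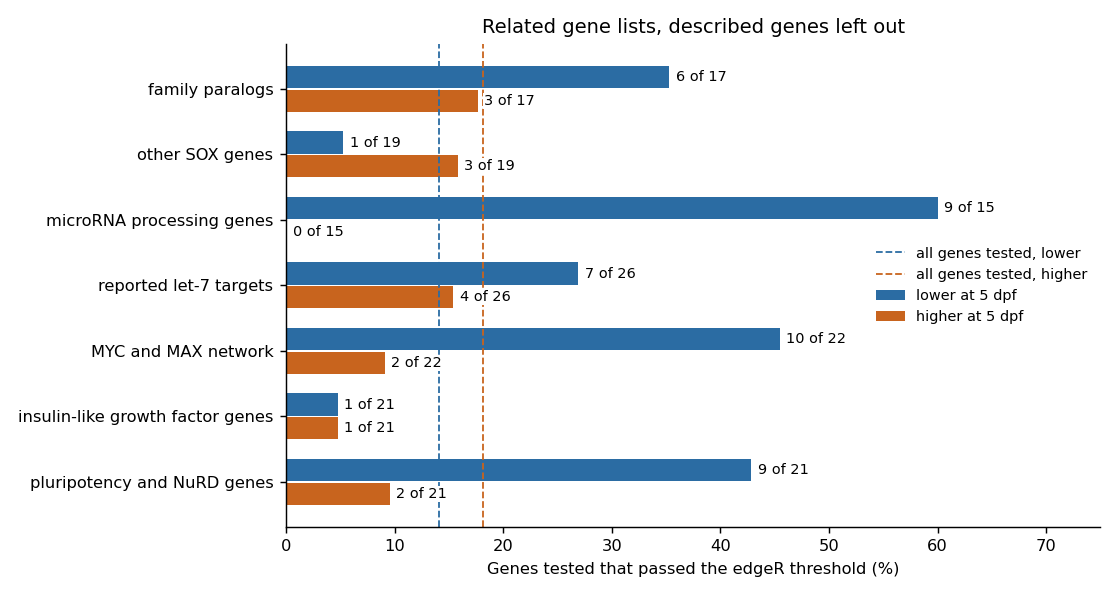
Share of the tested genes of each related list that passed edgeR's adjusted p threshold of 0.05, lower (blue) or higher (orange) at 5 dpf, with the share over all genes tested as dashed lines (14.1 and 18.1%). The microRNA processing list has 9 of 15 lower and 0 higher, and the IGF list 1 and 1 of 21.

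The genes whose libraries followed the 10 most closely were found by Pearson's r over the 6 libraries, between log2 CPM and the mean centred log2 CPM of the 10. They were ube2t (r = 1.000), uchl5 (0.999), orc3 (0.999), c4b (0.998) and taf2 (0.998). ube2t is a ubiquitin-conjugating enzyme of DNA repair and orc3 a subunit of the origin recognition complex. Of 9550 genes with a mean of at least 10 CPM, 1113 had r over 0.95, and the 6 libraries form 2 ages, so a high r mostly marks a gene that is lower at 5 dpf. Within the set, r with this mean was 0.99 for igf2bp1, 0.98 for lin28ab and sox11a, 0.65 for igf2bp3 and 0.26 for sox11b. Each of these genes is itself part of the mean and was listed for its fall, so nothing is read from these r. The ube2t level went from 16.6 CPM on average at 3 dpf to 5.88 at 5 dpf.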

How the data were processed

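RNA-seq libraries of sorted intestinal epithelial cells, 3 at 3 dpf and 3 at 5 dpf, were grouped by sample title. The deposited files hold raw counts per gene from the authors: per the file headers, featureCounts 1.6.3 counted fragments over exons with strand setting 2 on Ensembl release 115 of GRCz11. The submitters' processing notes also name Trimmomatic 0.38 and STAR 2.7.11.

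Counts were tested with edgeR 4.0.16 in R 4.3.3 (quasi-likelihood F-test, two-sided, TMM, age as the only term, filterByExpr with a minimum count of 10 and total of 15), and adjusted by Benjamini-Hochberg over all 22386 genes tested at 0.05. The SE is the log2 fold change over the root of F. The script was tested on simulated counts. Likeness used log2 CPM with a prior count of 2. Each library came from pooled larvae, so a p-value covers the spread between pools only, which may be technical.

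Symbols were paired with 29201 of 32520 genes, and 7 lists and 12 marker lists were matched by symbol, case ignored. Copies were named from the RefSeq table of another assembly (GRCz12tu) by chromosome alone. The genes and lists were chosen with earlier results of these data known. Named beyond the 10 are family and SOX genes, each called gene of a list with at most 6, otherwise the 3 lower and 2 higher of largest change at 5 CPM or more, and 5 genes most alike in profile. Other exceptions are stated, and 1 gene that the rule names is not reported here.

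The 15 alternatives used other scaling (RLE, upper quartile, library size), other filters (none, 1 CPM in 3 libraries), DESeq2 1.42.0, a replicate block, no mitochondrial genes, each library left out, and 2 left out together.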

Additional observations from a re-analysis of the deposited data

How the results depend on the processing

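The 10 genes' median log2 fold change lay between -1.53 and -1.29 with each library left out. Leaving out each library in turn gave 1226 to 4880 genes lower and 1777 to 5748 higher over all genes. In the same way the family genes gave 2 to 6 lower and 0 to 4 higher, other SOX genes 0 to 2 and 0 to 4, microRNA processing genes 1 to 10 and 0 to 0, let-7 targets 1 to 8 and 1 to 5, the MYC network 6 to 13 and 1 to 2, IGF genes 0 to 2 and 0 to 7, and pluripotency and NuRD genes 4 to 11 and 1 to 2.

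With library size alone 1337 genes were lower and 2512 higher. Then 1 family gene, 0 SOX genes, 1 MYC network gene, 0 IGF genes and 1 NuRD gene were higher, and 0 SOX genes, 2 microRNA processing genes, 3 let-7 targets, 6 MYC network genes and 3 NuRD genes lower. Without both 5 dpf replicate 1 and 3 dpf replicate 3, 5608 genes were lower and 6294 higher, 5 family genes higher, 2 SOX genes lower, 11 let-7 targets lower, and 5 IGF genes lower and 8 higher. With DESeq2, 3971 genes were lower and 5310 higher, with 2 SOX genes lower and 5 higher, and 3 IGF genes lower and 3 higher. With at least 1 CPM in 3 libraries 3273 genes were higher, among them 1 SOX gene, 2 IGF genes and 1 NuRD gene. With no filter 3959 genes were higher, 2 of them IGF genes. Upper quartile scaling moved the median of all genes from 0.09 to 0.22 and gave 2471 genes lower and 4650 higher. Of these, 3 family genes and 0 SOX genes were lower and 2 IGF genes higher. The cause was not tested.

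Deviations of libraries with equal replicate numbers correlated at 0.09, -0.22 and 0.19, and those with unequal numbers at -0.26 to 0.24. With 3 libraries per age these values cannot tell whether libraries of equal number shared a day. With the replicate block 2341 genes were lower and 3297 higher, 1 family gene, 1 MYC network gene and 1 NuRD gene higher, and 2 SOX genes lower. For single genes, igfbp1b reversed to -1.13 without both libraries. Over all single genes and alternatives, a value crossed the threshold 185 times to lose a call and 77 times to gain one. Low counts limit the precision of lin28aa (0 to 157 per library) and of the let-7 loci (at most 65 per locus and library).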
